A study of Mus musculus with 9 samples.

Results

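The 8 genes described here encode the 3 TGF-beta ligands (Tgfb1, Tgfb2 and Tgfb3), the receptors that bind them (Tgfbr1, Tgfbr2 and Tgfbr3) and a pair of secreted matricellular proteins, Ctgf and Cyr61, which are widely used as readouts of TGF-beta and of YAP. They were taken by symbol from the deposited counts, which list 13890 genes, and all 8 passed the filter on low counts that left 13364 genes for testing. RNA came from the hearts of 9 male NSG mice, an immunodeficient strain that accepts human cells, 8 weeks old when the experiment began and killed about 3 weeks later as the series description has it, or a few days after that by the study's methods. The 3 sham mice (S, animals 2, 3 and 5) had the operation with saline. The 3 mice labelled splenic HCT116 (T, animals 11, 12 and 15) had, by that label, cells of HCT116, a human colorectal cancer line, injected into the spleen, from which they seed the liver. The 3 mice labelled splenic HCT116+ACVR2B/Fc (A + T, animals 20, 21 and 22) had these cells and weekly ACVR2B/Fc, a soluble activin receptor fused to an antibody Fc fragment that binds activins, myostatin and related ligands, and mice of the study not given ACVR2B/Fc received saline in its place. NSG hosts lack mature lymphocytes, so the model has no adaptive response to the tumour, and 1 heart gave 1 library.

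Fold changes of the libraries labelled T over S followed what the study's gene table lists for ACVR2B/Fc without a tumour, and not what it lists for untreated tumour hosts, whereas the S and A + T libraries followed that table. The group is therefore called by its label, "the libraries labelled T", and no direction given for it is assigned to the tumour or, in A + T vs. T, to ACVR2B/Fc. A + T vs. S compares no library labelled T, but those libraries enter the shared fit that gives its spread and P-values. The 2 airway and lung markers in the counts, Scgb1a1 and Sftpb, summed to 1277 CPM (counts rescaled so that library totals are alike) in animal 22 of A + T and to 80.5 CPM in animal 12 of T, against at most 1.67 CPM in the other libraries, so results that rest on these animals are also given without them. The libraries held 12392222 to 19732471 counts on genes, of which the ribosomal RNA gene Rn45s took 4.57% to 19.6%, and 7 cardiomyocyte markers, Myh6 and Actc1 among them, were present in every library with summed levels of 45820 to 67800 CPM.

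TGF-beta is secreted as a latent complex held in the matrix and has to be released, by integrins or proteases, before it can bind. The free ligand is gathered by the type II receptor, which phosphorylates the type I receptor, which in turn phosphorylates Smad2 and Smad3. In the heart the pathway is best known for driving fibroblasts to make collagen, and Ctgf (Ccn2) and Cyr61 (Ccn1) belong to the CCN family, whose genes respond to TGF-beta, to stretch and to YAP with its TEAD partners. ACVR2B and the TGF-beta receptors belong to the same receptor superfamily, but ACVR2B does not bind the TGF-beta ligands described here.

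RefSeq promoters on GRCm38.p6 were matched for 5 of the 8 genes. The 250 bases before the start are shown for Cyr61, whose level was lower where that of Ctgf was higher, and for a pair of ligand genes of which Tgfb1 passed the test in T vs. S and Tgfb2 did not. Capitals mark the letters searched for on both strands, namely CAGAC (or GTCTG), a short Smad-type sequence found in 42.2% of 32851 promoters of this length, CATTCC (or GGAATG), a TEAD-type sequence found in 12.6%, and TGACG (or CGTCA), the core of a CREB-type site, found in 17.8%. TATAA was searched for on the printed strand and was found in 16.0%. The windows are chr3:145649986-145650235 on the minus strand for Cyr61, chr7:25686752-25687001 on the plus strand for Tgfb1 and chr1:186705990-186706239 on the minus strand for Tgfb2, each printed 5′ to 3′ towards the start.
Cyr61: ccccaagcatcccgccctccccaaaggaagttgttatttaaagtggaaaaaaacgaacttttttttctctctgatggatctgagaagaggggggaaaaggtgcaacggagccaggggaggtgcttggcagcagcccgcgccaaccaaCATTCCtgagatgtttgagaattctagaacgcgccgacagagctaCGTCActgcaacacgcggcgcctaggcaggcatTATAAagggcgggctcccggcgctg
Tgfb1: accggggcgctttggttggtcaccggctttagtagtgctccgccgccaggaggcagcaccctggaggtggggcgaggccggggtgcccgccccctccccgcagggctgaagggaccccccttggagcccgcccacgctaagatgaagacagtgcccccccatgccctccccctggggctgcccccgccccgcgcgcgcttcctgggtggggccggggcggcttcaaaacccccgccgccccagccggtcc
Tgfb2: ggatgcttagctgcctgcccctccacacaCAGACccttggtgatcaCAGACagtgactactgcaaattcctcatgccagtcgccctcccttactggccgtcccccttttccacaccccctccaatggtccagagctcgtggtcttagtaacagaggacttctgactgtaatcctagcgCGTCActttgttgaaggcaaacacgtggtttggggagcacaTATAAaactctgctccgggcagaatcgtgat

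Cyr61 carried CATTCC with its first base 103 bases before the start, CGTCA at 58 and TATAA at 25. Tgfb2 carried CAGAC at 221 and at 204, CGTCA at 72 and TATAA at 31, and the Tgfb1 window held none of the letters searched for. These matches describe letters and not binding.

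Each gene lies on a chromosome of its own. In the GENCODE annotation of GRCm38 the list places Ctgf on chromosome 10 from 24595442 to 24598683, Cyr61 on chromosome 3 from 145646976 to 145649981, Tgfb1 on chromosome 7 from 25687002 to 25705077, Tgfb2 on chromosome 1 from 186622792 to 186705989 and Tgfb3 on chromosome 12 from 86056745 to 86079041. Tgfbr1 lies on chromosome 4 from 47353222 to 47414931, Tgfbr2 on chromosome 9 from 116084293 to 116175360 and Tgfbr3 on chromosome 5 from 107106570 to 107289629.

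To compare levels between genes, the deposited values per kilobase of gene length were used. In S, Ctgf was the most abundant member at 67.6 ± 8.76 CPM per kilobase (SD, n = 3), ahead of Cyr61 at 46.4 ± 4.32. Tgfbr2, the type II receptor, followed at 19.3 ± 2.14, then Tgfb1 at 14.3 ± 1.24 and Tgfbr3, the co-receptor betaglycan, at 11.4 ± 0.724. Tgfb3 at 8.05 ± 0.651, Tgfbr1, the type I receptor, at 4.90 ± 0.360 and Tgfb2 at 3.61 ± 0.210 were the lowest, and no member overlapped its neighbour in this order across the S libraries. In the libraries labelled T, Ctgf reached 189 ± 31.9 and Cyr61 33.7 ± 5.4, Tgfbr3 at 13.5 ± 2.01 stood above Tgfb1 at 10.4 ± 0.843, and Tgfb3 at 4.23 ± 1.2 overlapped both Tgfbr1 at 4.98 ± 0.394 and Tgfb2 at 3.15 ± 0.243. In A + T the order was that of S, with Ctgf at 73.6 ± 11.9 and Cyr61 at 46.9 ± 9.53, except that Tgfb3 at 5.19 ± 0.589 overlapped Tgfbr1 at 5.16 ± 0.318. The place of Tgfb1 depends on the length used, which is 2.10 kb in the deposited values and 5.04 kb over all annotated exons. Per kilobase of annotated exon, a scale added after the values were seen, Tgfb1 came to 5.96 ± 0.522 CPM in S, under Tgfb3 at 8.07 ± 0.662 and Tgfbr3 at 10.6 ± 0.673, and Tgfbr2 at 11.3 ± 1.27 overlapped Tgfbr3.

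**Figure D1:**
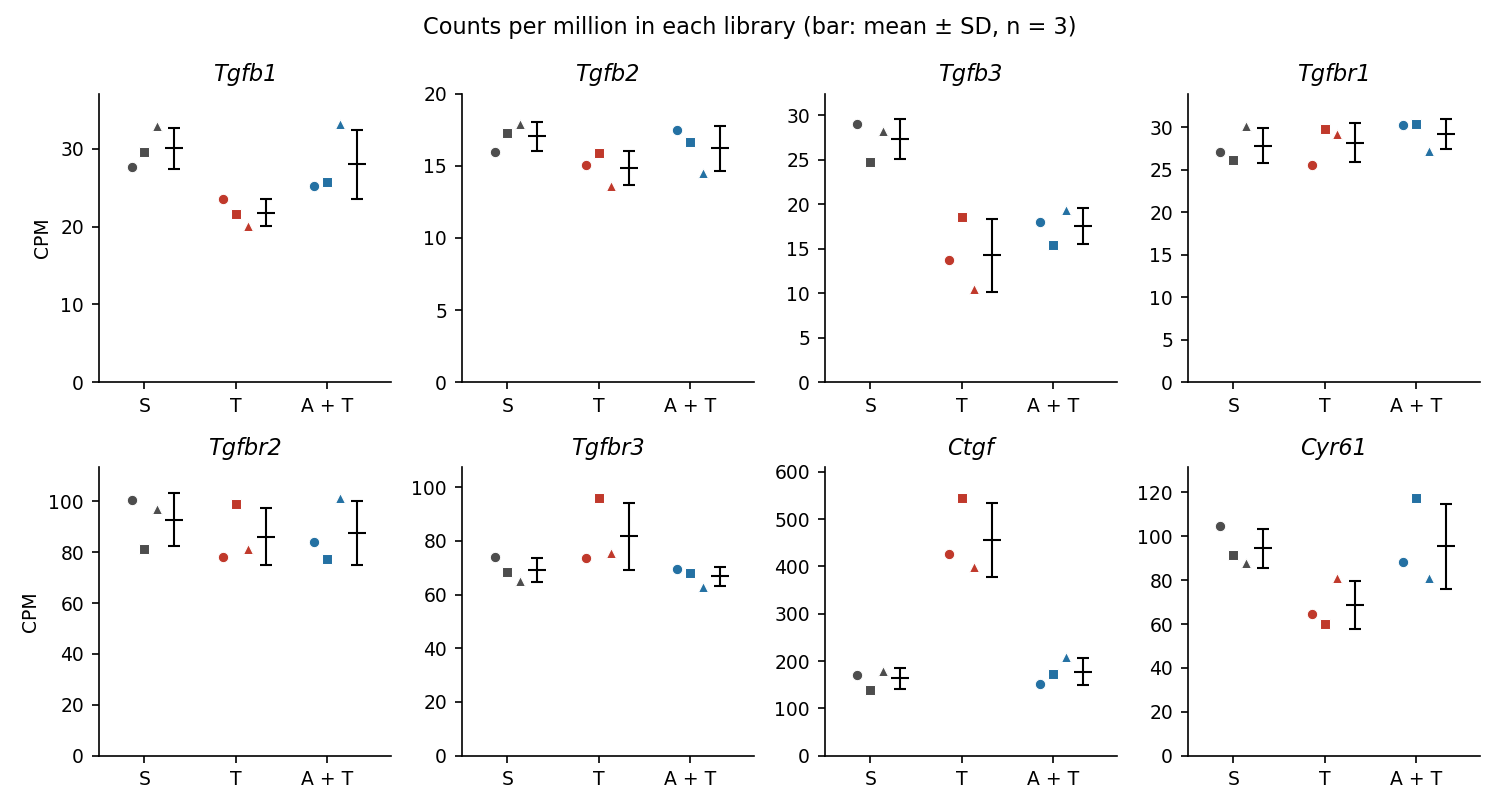
CPM (y axis, from 0) of the 8 members in each of the 9 libraries, grouped by label, with circles, squares and triangles for replicates 1, 2 and 3 of a group and a black bar for mean ± SD (n = 3). The libraries labelled T lie at 398.2 to 544.8 CPM of Ctgf, above all others, and at 10.5 to 18.6 CPM of Tgfb3, below every S library.

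T vs. S asks how the hearts labelled as tumour hosts differ from sham hearts. Of the 8 members, Ctgf rose and Tgfb3 and Tgfb1 fell at an adjusted P-value under 0.05, whereas the receptors, Tgfb2 and Cyr61 did not pass. These 3 members stand against 21.2% of all genes tested that passed in this comparison, 10.3% higher and 11% lower. With the cutoffs of the study's methods, a fold of 1.5 or more and P under 0.05 before adjustment, 2 members passed, Ctgf and Tgfb3, against 14.2% of all genes. The median change of all genes tested was −0.0038 on the log2 scale.

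Tgfb3, the ligand isoform best known from development of the palate, measured 29.0, 24.8 and 28.2 CPM in S and 13.7, 18.6 and 10.5 CPM in the libraries labelled T. All T values lay under all S values. The log2 fold change was −0.92 (standard error, SE, 0.18, adjusted P = 0.0049), which is 1.90-fold lower, and it passed in each of 9 fits that left out 1 animal and under each of 9 other settings.

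Tgfb1, the isoform most often linked to fibrosis, measured 27.7, 29.6 and 32.9 CPM in S and 23.6, 21.6 and 20.1 CPM in the libraries labelled T. The groups did not overlap here either, but the gap between them was narrower than for Tgfb3. Tgfb1 fell by 0.46 on the log2 scale (SE 0.12, adjusted P = 0.0227). The call was lost with library totals in place of TMM (adjusted P = 0.0677), without animal 3 (0.0588), animal 5 (0.0818), animal 12 (0.0616) or animal 15 (0.0753).

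Tgfb2, the isoform of the embryonic outflow tract, measured 15.9, 17.3 and 17.9 CPM in S and 15.1, 15.9 and 13.6 CPM in the libraries labelled T. The highest of the T values was close to the lowest of the S values and did not reach it. The log2 fold change was −0.19 with a 95% interval from −0.43 to 0.042 (adjusted P = 0.220).

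The receptors did not pass in T vs. S. Tgfbr2 measured 101, 81.1 and 96.9 CPM in S and 78.2, 99.1 and 81.4 CPM in the libraries labelled T, with a log2 fold change of −0.11 and a 95% interval from −0.39 to 0.18 (adjusted P = 0.596). Tgfbr1 measured 27.1, 26.2 and 30.2 CPM in S and 25.6, 29.8 and 29.3 CPM in T, with 0.021 and an interval from −0.19 to 0.23 (adjusted P = 0.898). Both receptors that carry a kinase overlapped between the groups, and neither interval reached the −0.92 of Tgfb3. Tgfbr3, which presents ligand to the type II receptor and can be shed, measured 73.9, 68.3 and 65.2 CPM in S and 73.5, 96.0 and 75.7 CPM in T. Its log2 fold change was 0.24 (SE 0.11, 95% interval 0.0060 to 0.48, adjusted P = 0.132). Its groups overlapped through animal 2 of S and animal 11 of T, and animal 12 of T, the library with lung markers, was the highest. Without that animal the log2 fold change of Tgfbr3 was 0.11 (adjusted P = 0.432).

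Ctgf measured 170.7, 139.2 and 179.7 CPM in S and 426.0, 544.8 and 398.2 CPM in the libraries labelled T. The lowest library labelled T held more Ctgf than any S library by a wide margin. Ctgf rose by 1.48 on the log2 scale (SE 0.16, adjusted P = 0.000243), which is 2.80-fold, and with each animal left out it stayed between 1.34 and 1.58 and passed in 9 of 9 fits.

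Cyr61, the nearest relative of Ctgf here, measured 104.5, 91.6 and 87.6 CPM in S and 64.6, 60.2 and 81.0 CPM in the libraries labelled T. The T values lay under the S values without overlap, the opposite order to Ctgf. The log2 fold change was −0.47 (SE 0.15, adjusted P = 0.0516), just outside the threshold. It passed under 7 of 9 other settings, with adjusted P-values from 0.0187 to 0.0554 over all 9, and in 3 of 9 fits that left out 1 animal, those without animal 15 (0.0280), animal 21 (0.0253) or animal 22 (0.0257).

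A + T vs. T sets the libraries labelled as tumour hosts given ACVR2B/Fc against those labelled as tumour hosts alone, and what the second group received is in doubt, as said above. Of the 8 members, 1 passed, Ctgf, which fell, against 5.88% of all genes tested (3.09% higher and 2.79% lower), and with the study's cutoffs Ctgf was again the member that passed, against 8.1% of all genes. This comparison shares the libraries labelled T with the one above, so a value that is high in T gives a fall here by construction.

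Ctgf measured 151.1, 173.6 and 208.6 CPM in A + T, each under the lowest library labelled T, with animal 22 above the range of S and the other animals within it. Ctgf fell by 1.36 on the log2 scale (SE 0.16, adjusted P = 0.00269), which is 2.57-fold lower, and it passed in 9 of 9 fits that left out 1 animal. Without animal 22, the library with lung markers and the highest Ctgf of A + T, it passed too.

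Cyr61 measured 88.2, 117.5 and 80.9 CPM in A + T. Its lowest value, in animal 22, fell just under the 81.0 CPM of animal 15, so the groups touched. The log2 fold change was 0.48 (SE 0.15, adjusted P = 0.0924), which passed with DESeq2 (0.0362) and without animal 22 (0.0385).

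Among the ligands, Tgfb1 measured 25.2, 25.7 and 33.1 CPM in A + T, all above the libraries labelled T, with a log2 fold change of 0.36 (SE 0.12, adjusted P = 0.112). The highest of these values was that of animal 22, the library with lung markers. With each animal left out, animal 22 among them, the log2 fold change of Tgfb1 ranged from 0.22 to 0.43 and passed in 0 of 9 fits. Tgfb3 measured 18.0, 15.4 and 19.3 CPM in A + T and overlapped the libraries labelled T, with 0.29 (SE 0.18, adjusted P = 0.374). Tgfb2 measured 17.5, 16.7 and 14.5 CPM, with 0.12 (SE 0.11). None of the ligands passed, and the intervals reached 0.63 for Tgfb1 and 0.68 for Tgfb3.

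Of the receptors, Tgfbr3 measured 69.6, 67.9 and 62.9 CPM in A + T, all under the libraries labelled T. Its log2 fold change was −0.29 (SE 0.11, 95% interval −0.53 to −0.056, adjusted P = 0.137). Animal 12 of T, the library with lung markers, was the highest at 96.0 CPM. With each animal left out, animal 12 among them, the log2 fold change of Tgfbr3 ranged from −0.36 to −0.16. It passed in 0 of 9 of these fits, with adjusted P-values up to 0.339. Tgfbr1 measured 30.2, 30.4 and 27.2 CPM and Tgfbr2 84.0, 77.3 and 101 CPM, both overlapping the libraries labelled T. The log2 fold changes were 0.054 (95% interval −0.15 to 0.26) for Tgfbr1 and 0.022 (−0.27 to 0.31) for Tgfbr2.

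A + T vs. S sets treated hosts against sham and compares no library labelled T. Those libraries still enter the fit that gives its spread and P-values. Of the 8 members, 1 passed, Tgfb3, which was lower in A + T, against 8.31% of all genes (4.67% higher and 3.64% lower), and 1 passed with the study's cutoffs, against 8.91%. Every A + T value of Tgfb3, the highest being 19.3 CPM, lay under the lowest S value of 24.8 CPM. The log2 fold change was −0.63 (SE 0.17, adjusted P = 0.0497), which is 1.55-fold lower. That call sits at the threshold and passed under 4 of 9 other settings and in 2 of 9 fits that left out 1 animal, those without animal 12 or animal 15 of T, with adjusted P-values up to 0.159 without animal 2.

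For Ctgf the log2 fold change of A + T vs. S was 0.12 with a 95% interval from −0.22 to 0.46, and for Cyr61 it was 0.013 with an interval from −0.32 to 0.35. Those of Tgfb1 (−0.100, from −0.37 to 0.17), Tgfb2 (−0.071, from −0.31 to 0.16), Tgfbr1 (0.074, from −0.13 to 0.28), Tgfbr2 (−0.084, from −0.37 to 0.20) and Tgfbr3 (−0.050, from −0.29 to 0.19) did not pass either. A change of 1.5-fold lay outside each of these 7 intervals.

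**Figure D2:**
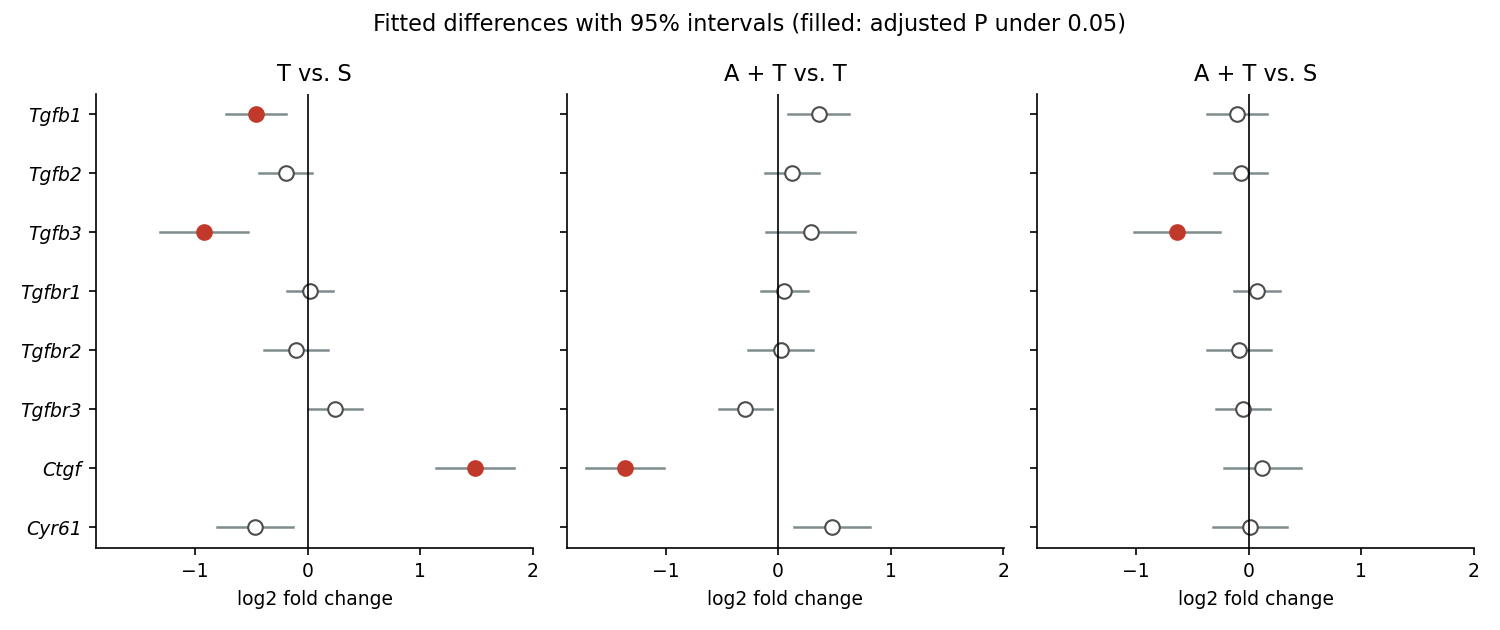
Log2 fold change (x axis) of each member in the 3 comparisons, with lines for the 95% interval and filled circles for an adjusted P-value under 0.05. Ctgf stands apart at 1.48 in T vs. S and −1.36 in A + T vs. T, and Tgfb3 at −0.92 in T vs. S and −0.63 in A + T vs. S. Tgfbr1 and Tgfbr2 lie near 0, and Tgfbr3 lies at 0.24 in T vs. S and −0.29 in A + T vs. T, not called in either.

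The makeup of the ligand RNA was compared on the scale per length. The summed ligand level was 26.0 ± 1.53 CPM per kilobase in S, against 17.8 ± 1.90 in T and 21.98 ± 2.24 in A + T, each with its SD over 3 libraries. The S and T libraries did not overlap in this sum. Tgfb3 made up 31.0% ± 2.62 of it in S, against 23.5% ± 4.56 in T and 23.6% ± 1.48 in A + T, and Tgfb2 13.9% ± 0.630 in S and 17.8% ± 0.635 in T. With annotated exon lengths Tgfb3 was 47.5% ± 3.02 of the ligand sum in S, against 37.5% ± 5.73 in T and 38.3% ± 1.82 in A + T, so its share depends on the length used, and on both lengths it was higher in S than in T. The summed receptor level was 35.6 ± 2.60 in S, against 36.4 ± 4.59 in T and 34.3 ± 1.78 in A + T. Within it Tgfbr3 held 32.0% ± 2.34 in S, against 36.9% ± 0.947 in T and 32.1% ± 3.08 in A + T.

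Cyr61 made up 42.0%, 43.8% and 36.6% of the sum of Ctgf and Cyr61 in the S libraries, against 15.3%, 11.6% and 19.4% in those labelled T. In A + T it made up 40.9%, 44.5% and 31.5%. The libraries labelled T lay apart from both other groups, which overlapped each other. The sum itself was 114 ± 10.1 CPM per kilobase in S, against 223 ± 27.8 in T and 120 ± 12.7 in A + T. A two-sided exact permutation test of the Cyr61 share gave P = 0.1 in both comparisons with the libraries labelled T, the smallest that 3 animals against 3 allow, and over the 21 shares and comparisons tested no adjusted P-value was under 0.233.

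**Figure D3:**
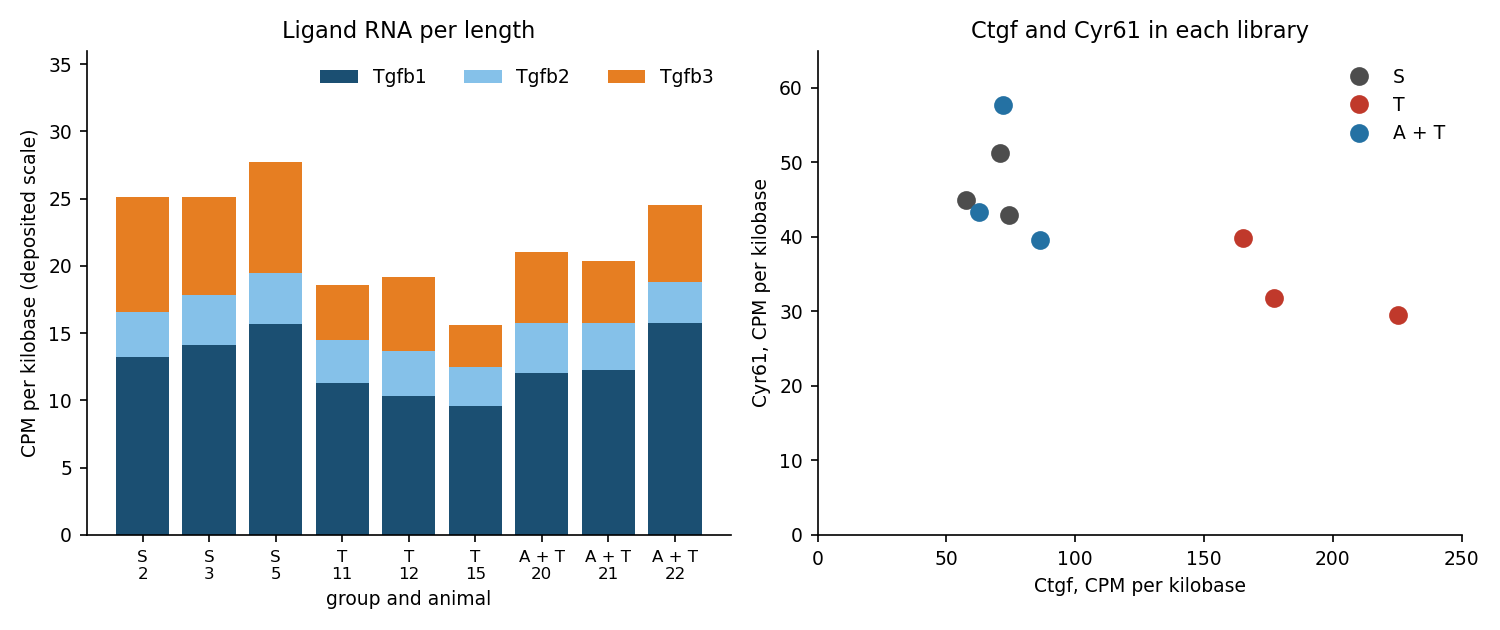
Left, stacked bars of Tgfb1, Tgfb2 and Tgfb3 in CPM per kilobase for each library, named by group and animal. Right, Cyr61 against Ctgf in CPM per kilobase, a point per library, where the libraries labelled T lie at the right with Ctgf of 165.1 to 225.4 and Cyr61 of 29.6 to 39.8.

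Markers of several cell types were lower in T vs. S as well, where 11% of all genes fell. The falls took in 7 of 7 fibroblast markers, among them Pdgfra and Tcf21, and 5 of 6 endothelial markers, among them Kdr and Cdh5. The summed fibroblast markers were 2314 to 2644 CPM in S, against 1136 to 1194 CPM in the libraries labelled T and 1633 to 2016 CPM in A + T, and the endothelial sums were 809 to 939, 466 to 584 and 605 to 730 CPM. Of 6 pericyte markers 4 fell in T vs. S, and their sums of 683 to 821 CPM in S and 487 to 691 CPM in T overlapped. Of 5 smooth muscle markers 2 fell, Smtn and Myh11, with sums of 194 to 216 CPM in S, against 127 to 155 CPM in T and 151 to 170 CPM in A + T. These falls numbered 0 without animal 2 or animal 11, and their number changed by more than 1.5 times in 7 of 9 fits that left out 1 animal. Smtn passed in 6 and Myh11 in 2 of these fits. Of 7 cardiomyocyte markers 1 fell in T vs. S, Actc1 (−0.90, 9 of 9 fits that left out 1 animal). Tnnt2 and Pln rose, each passing in 2 of 9 such fits, where 10.3% of all genes rose. The cardiomyocyte sums were 62400 to 67800 CPM in S, against 50910 to 60660 CPM in T and 45820 to 62910 CPM in A + T. All defining markers of these lists were detected, and none was at 0. In whole-heart RNA, fewer cells of a type and less RNA per cell cannot be told apart, and the part of these markers in the ligand results was not tested.

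Markers of the atrium and of the mesothelium varied widely among the libraries labelled T. The 5 atrial markers, Nppa and Myl7 among them, summed to 2999 to 3083 CPM in S, against 1546, 4552 and 861 CPM in T and 793, 1466 and 2054 CPM in A + T. The 5 mesothelial markers, Upk3b and Msln among them, summed to 71.3 to 80.2 CPM in S, against 54.1, 96.7 and 27.3 CPM in T and 31.2, 54.2 and 152 CPM in A + T. Within T both sums were highest in animal 12 and lowest in animal 15, as Tgfb3 was, and their part in the Tgfb3 values was not tested. In T vs. S 1 of 5 atrial markers fell, Bmp10, which lost its call without animal 11 or animal 12 and with the filter of 10 counts. In A + T it measured 0.247, 0.359 and 51.6 CPM, the last in animal 22, the library with lung markers.

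Per 1000 CPM of summed fibroblast markers, a scale added after the values were seen, Tgfb3 came to 11, 10.6 and 12.2 CPM in S, against 11.5, 16.4 and 9.16 CPM in T and 8.92, 8.99 and 11.8 CPM in A + T, and the 3 groups overlapped. Tgfb1 came to 10.5, 12.7 and 14.2 CPM in S and 19.8, 19.0 and 17.6 CPM in T, so that on this scale the T values were the higher, and to 12.5, 15 and 20.3 CPM in A + T. Ctgf came to 64.6, 59.5 and 77.7 CPM in S, against 357, 480 and 348 CPM in T and 74.9, 102 and 128 CPM in A + T, and the libraries labelled T remained apart. The fibroblast sum was itself lower in T than in S, so a member that fell less than the sum comes out higher here. Tgfb2, Tgfbr1, Tgfbr2, Tgfbr3 and Cyr61 were also higher in every T library than in every S library on this scale. For example, Cyr61 came to 37.9 to 39.5 CPM in S and 53 to 70.8 CPM in T. Gsn alone made up 72.8% to 82.8% of the fibroblast sum, so this scale is close to a scale per Gsn. Per 100 CPM of the other 6 markers, also added afterwards, Tgfb3 came to 5.45, 5.35 and 5.87 CPM in S, against 6.62, 9.54 and 4.56 CPM in T and 3.28, 4.56 and 6.25 CPM in A + T, and Tgfb1 to at most 6.85 CPM in S, against 8.76 to 11.4 CPM in T. On that scale Ctgf was 173 to 279 CPM in T, against 30.1 to 37.4 CPM in S and 27.6 to 67.4 CPM in A + T. The sum of the other 6 markers was lower in T too, at 195 to 230 CPM against 463 to 531 CPM in S.

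Against T, 5 of 7 fibroblast markers rose in A + T, with 1 of 7 without animal 11 and 7 of 7 without animal 22. Of 7 macrophage markers 5 rose in A + T vs. T, where 3.09% of all genes rose, and 5 in A + T vs. S, where 4.67% did, among them Cd68 and Csf1r, with sums of 164 to 177 CPM in S, against 165 to 179 CPM in T and 206 to 288 CPM in A + T. With each animal left out, 1 to 5 of the 7 rose in A + T vs. T (1 without animal 11), under the main count by more than 1.5 times in 6 of 9 fits, and without animal 2, 3 rose in A + T vs. S. Mrc1, of the same list, went the other way in animals 21 and 22, at 31.5 and 31.0 CPM. It was at 51.1 CPM in animal 20 and at 46.0 to 50.3 CPM in S and T. Without animal 20, 1 of the 7 markers fell in each of these comparisons. Platelets, which store TGF-beta, left 6 markers that summed to 85.5 CPM in animal 5 and 77.4 CPM in animal 22, the pair of libraries with the most Tgfb1, and to 27.6 to 45.1 CPM in the rest. The part of macrophages and platelets in the Tgfb1 values was not tested.

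**Figure D4:**
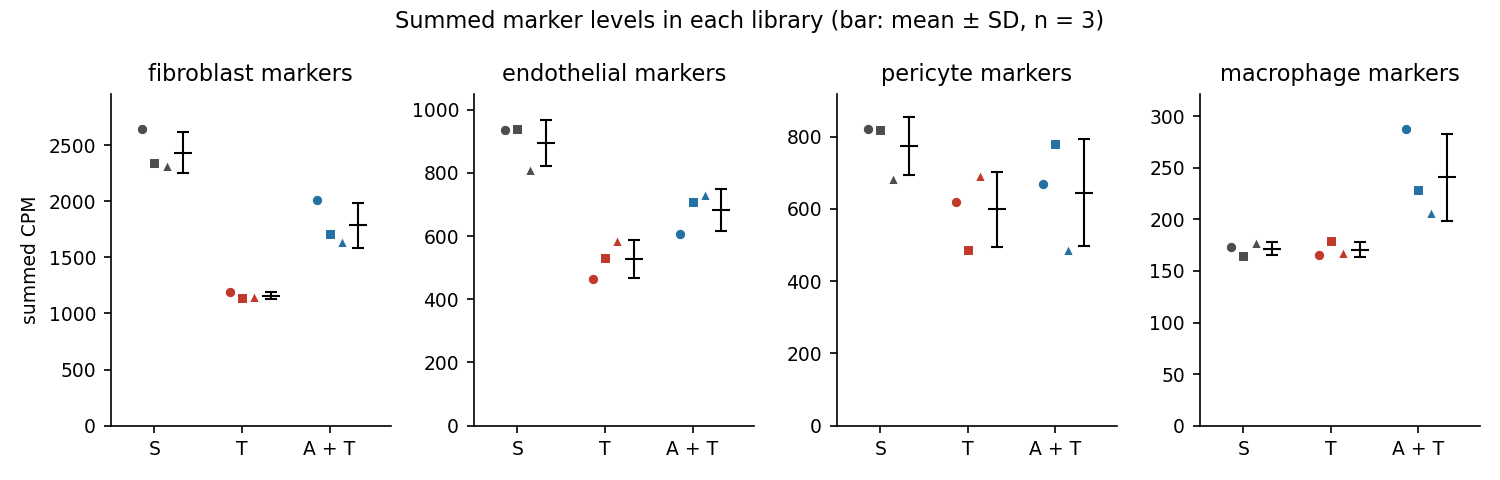
Summed CPM (y axis, from 0) of the markers of fibroblasts, endothelial cells, pericytes and macrophages in each library, with circles, squares and triangles for replicates 1, 2 and 3 and a black bar for mean ± SD (n = 3). Fibroblast markers sum to 1136 to 1194 CPM in the libraries labelled T against at least 2314 CPM in S, and macrophage markers are highest in A + T.

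Upstream of the receptors stand the genes that store and release TGF-beta. Of 21 such genes for latency and activation 2 rose and 11 fell in T vs. S, against 10.3% of all genes higher and 11% lower, with a median log2 fold change of −0.56. Itgb6, a subunit of an integrin that frees latent TGF-beta, fell from 21.7 ± 3.17 to 4.76 ± 0.358 CPM (log2 fold change −2.18, SE 0.22), and Ltbp4, which ties the latent complex to the matrix, fell from 353 ± 62.7 to 127 ± 10.1 CPM (−1.47, SE 0.16). Ltbp1, Ltbp2, Ltbp3, Fbn1, Bgn, Dcn, Emilin1, Itgb8 and Lrrc32 of the same list fell with them. Of these, Ltbp2 passed in 3, Ltbp3 in 4 and Dcn in 5 of 9 fits that left out 1 animal. The integrin subunits Itgb5 (0.43, SE 0.070) and Itgb1 (0.28, SE 0.078) rose, of which Itgb1 lost its call without animal 2, 3, 5, 11 or 12 (adjusted P up to 0.108) and Itgb5 with library totals. With each animal left out between 8 and 11 genes fell. Against T, 2 rose in A + T, Itgb6 (1.48, SE 0.22) and Bgn (0.63), and 2 fell, Itgb5 (−0.43) and Furin (−0.47), the protease that cuts the ligand precursors, against 3.09% of all genes higher and 2.79% lower. With each animal left out 1 to 6 rose (6 without animal 22) and 0 to 2 fell (0 without animal 11). Against S, Ltbp4 (−0.99, SE 0.16) and Itgb8 (−1.09, SE 0.29) fell in A + T, the second of which did not pass in any fit that left out 1 animal. Of all genes 3.64% fell there. Itgb8 levels were low, at 1.34 ± 0.165 CPM in S and 0.627 ± 0.0628 CPM in A + T.

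Of 12 co-receptors and regulators at the receptor 1 rose and 4 fell in T vs. S, with a median of −0.32, where 21.2% of all genes were called. Eng, the endothelial co-receptor endoglin, fell from 255 ± 24.1 to 155 ± 25.9 CPM (log2 fold change −0.72, SE 0.14), and Bambi, a decoy receptor without a kinase, fell by 0.73 on the log2 scale (SE 0.15). Dab2 and Vasn fell too, with 2 falls in place of 4 without animal 2 or animal 11. Lrg1, a secreted protein that modifies TGF-beta signalling in endothelium, rose by 0.91 (SE 0.18). None of the 12 passed in A + T vs. T by edgeR, where 3 had an unadjusted P-value under 0.05 and DESeq2 called 1 and limma-voom 0. Without animal 22, 1 rose and 1 fell, and in A + T vs. S Bambi fell (−0.59, adjusted P = 0.0388, and 4 of 9 fits that left out 1 animal), where 3.64% of all genes fell.

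Of 18 Smads, adaptors and Smad co-repressors none rose and 5 fell in T vs. S, with a median of −0.17. The share called was near the 21.2% of all genes called in either direction. All 5 calls were falls, and 11% of all genes fell. Pmepa1, a target gene whose product holds back Smad2 and Smad3, fell from 43.5 ± 1.78 to 25.1 ± 2.63 CPM (log2 fold change −0.80, SE 0.13, 9 of 9 fits that left out 1 animal) and was lower again in A + T vs. S, at 19.5 ± 3.61 CPM (−1.16, SE 0.13, 9 of 9 fits). Smad3 fell by 0.45 (SE 0.14), which passed in 2 of 9 fits, and Zfyve9, Ski and Smurf2 fell with it. With each animal left out 2 to 5 fell (2 without animal 2, 5 or 12), under the main count by more than 1.5 times in 7 of 9 fits, and 1 rose without animal 15. None passed in A + T vs. T by edgeR, DESeq2 or limma-voom, where 6 had an unadjusted P-value under 0.05, and without animal 22, 1 rose and 1 fell. Against S, 3 fell in A + T, Pmepa1, Zfyve9 and Ski, with 1 to 4 over the fits that left out 1 animal (1 without animal 2), against 3.64% of all genes lower.

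The target genes of TGF-beta divided in T vs. S. Of 21 tested 5 rose and 7 fell, with a median of −0.28, and the same comparison had 10.3% of all genes higher and 11% lower. Those that fell were Col1a1, Col1a2, Col3a1, Postn, Loxl2, Acta2 and Pmepa1, with Col3a1 at −1.98 (SE 0.27) and Col1a2 at −1.70 (SE 0.25). Among those that rose were Spp1, Lox, Cdkn1a and Bhlhe40, which encode osteopontin, a collagen crosslinking enzyme, a cell cycle inhibitor and a clock-linked repressor. Spp1 rose by 3.13 (SE 0.81), from a low level of 0.50 ± 0.26 CPM in S to 4.27 ± 4.24 CPM in T. It lost its call without animal 2, 3, 5 or 12, with limma-voom and with the filter of 10 counts. Col1a1 is also counted among the fibroblast markers, and Pmepa1, Smad7 and Skil are also counted among the Smad regulators.

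Against T, 3 of these targets rose in A + T, Col3a1 (1.69, SE 0.27), Postn (1.54) and Col1a2 (1.18), and 3 fell, among them Cdkn1a (−1.02) and Bhlhe40 (−0.55), against 5.88% of all genes called. Without animal 11 none rose and 1 fell, and without animal 22, 6 rose and 4 fell. The median was 0.48 and turned to −0.20 without animal 22. Compared with S, Spp1 rose (4.26, SE 0.79) and Pmepa1 and Acta2 (−0.92, SE 0.19) fell in A + T, with 1 to 6 falls (6 without animal 20) and 0 to 2 rises over the fits that left out 1 animal. Of all genes 4.67% rose and 3.64% fell in that comparison. Spp1 lost its call here without animal 2 or animal 3, and Acta2 without animal 3 or animal 5.

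Among 19 targets of YAP and TEAD, the group that shares Ctgf and Cyr61 as its best known members, 4 rose and 3 fell in T vs. S, with a median of 0.059, against 10.3% of all genes higher and 11% lower. Nt5e, an enzyme that makes adenosine, rose by 1.26 (SE 0.14) and Ankrd1, a stress-induced repeat protein of the cardiomyocyte sarcomere, by 1.07 (SE 0.15), and both passed in 9 of 9 fits that left out 1 animal. Amotl2 and Gadd45a rose as well, while Axl (−0.83, SE 0.16), Lats2 and Dock5 fell. The rises numbered 2 without animal 3 and the falls 1 without animal 2 or animal 5. Both Nt5e (−1.09, SE 0.14) and Ankrd1 (−0.70, SE 0.15) fell in A + T vs. T, the second of which lost its call without animal 11 or animal 12, where 2.79% of all genes fell. Amotl2 (0.60) and Gadd45a (0.65) rose in A + T vs. S, where 4.67% of all genes rose, and neither passed without animal 2, 3 or 21.

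Of the other CCN genes 3 of 4 could be tested, with a median of −0.59 in T vs. S, and none was called in any comparison by edgeR, DESeq2 or limma-voom, with 1 at an unadjusted P-value under 0.05 in T vs. S and 0 in each other comparison. Of 20 immediate early genes, a class to which Cyr61 also belongs, 2 rose in T vs. S, Myc (1.33, SE 0.17) and Maff (1.18), and 4 fell, Egr1, Egr2, Egr3 and Ier2, with Egr2 at −2.55 (SE 0.58). The rises were at the 10.3% of all genes that rose, and 11% of all genes fell. The falls numbered 1 without animal 3 or animal 11. Egr2 levels were low, at 3.00 ± 1.32 CPM in S and 0.566 ± 0.565 CPM in T. Egr1 rose in A + T vs. T (1.96, adjusted P = 0.0481), which passed in 2 of 9 fits that left out 1 animal, where 3.09% of all genes rose. Myc rose in A + T vs. S (1.43, SE 0.17), where 4.67% of all genes rose.

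**Figure D5:**
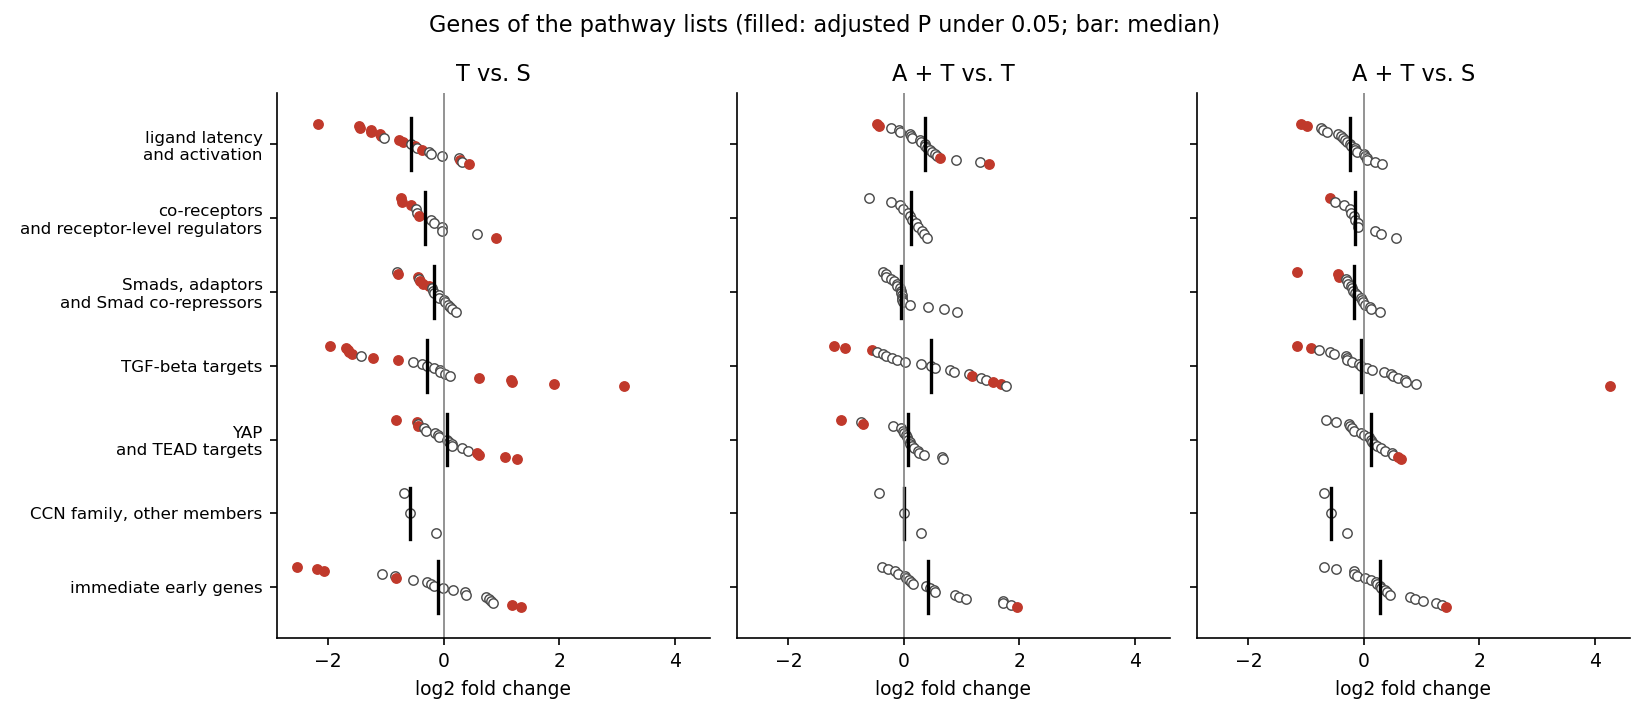
Log2 fold change (x axis) of each gene of 7 lists around the pathway in the 3 comparisons, with filled circles for an adjusted P-value under 0.05 and a black bar for the median of the list. In T vs. S the genes of latency and activation lie mostly to the left (median −0.56), and the TGF-beta targets spread from −1.98 to 3.13.

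The genes whose pattern over the 9 libraries lay nearest to each called member were found by the root mean square difference of log2 CPM after centring each gene. For Ctgf these were Igsf23 (0.190), Fkbp5 (0.213), a target of the glucocorticoid receptor, and Sec1 (0.218), against a median of 0.722 over all genes compared. For Tgfb3 they were Rcn3 (0.113), Nat8l (0.117) and Chst12 (0.130), against 0.484, and for Tgfb1 Armcx1 (0.0764), Pls3 (0.0839) and Slx4ip (0.0854), against 0.308. Libraries of the same group share their group means in this measure, so it describes likeness and tests nothing.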

How the data were processed

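RNA of 9 hearts, 3 each of S, T and A + T, was grouped by the sample labels. Each library was counted as 1 animal, and the number that ends its title was taken as the animal number. The authors enriched mRNA, sequenced 75-base paired ends, aligned them to mm10 with STAR, and assigned unique, strand-matched pairs to RefSeq genes with featureCounts. The deposited counts are not normalized. They also deposited log2 values, made from the same counts. For each gene these differed from log2 CPM by a constant (median SD over libraries 0.00247, 10021 genes), as for values per kilobase, and were used for levels between genes. The prior count and the lengths behind them are not given in the sources used here.

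Rows without a gene name, 3443 in number, held no counts. A gene was removed when over 4 of its 9 CPM values were under 0.5 (526 genes). The quasi-likelihood test of edgeR 4.0.16, run in R 4.3.3, was applied to the counts with TMM and all libraries in the same fit, and P-values were adjusted by Benjamini-Hochberg over 13364 genes. The standard error is the log2 fold change over the square root of F, and the 95% interval uses the t quantile at the degrees of freedom of the fit. Totals of 12392222 to 19732471 counts, with their TMM factors, put 3 counts at 0.152 to 0.281 CPM. This covers counting error only. Shares were compared with a two-sided exact permutation test (SciPy 1.17.1).

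Other settings were DESeq2 1.42.0, limma-voom (limma 3.58.1), upper-quartile scaling, library totals, a fit of only the groups compared, no filter, a filter of 10 counts per library, the deposited log2 values with limma, each animal left out and, added after the data were seen, Rn45s left out, annotated exon lengths for levels, and levels per fibroblast marker sum with and without Gsn. The scripts were tested on simulated data. The study's table of its own comparisons was read only to check the labels. Named with values are all members and, per list and comparison, up to 2 largest rises and falls among called genes with a mean of at least 10 counts. Others were named after their values were seen. A called TGF-beta target is included in the counts of its list and is not reported here by name. The members and lists were chosen with earlier results of these data known. Coordinates come from GENCODE on GRCm38 and promoter sequences from RefSeq on GRCm38.p6. Figures were drawn with matplotlib 3.10.9.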

Additional observations from a re-analysis of the deposited data

How the results depend on the processing

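Under the 9 other settings and the 9 fits that left out 1 animal, the members called stayed between 2 and 4 in T vs. S. In A + T vs. T 2 members were called with DESeq2, and 1 to 2 with each animal left out. In A + T vs. S 0 were called with upper-quartile scaling, library totals, no filter, the deposited log2 values or Rn45s left out, and 0 to 1 with each animal left out. In these, Tgfb3 was the member that lost its call, and its log2 fold change stayed between −0.70 and −0.54. Of all member log2 fold changes recomputed, 386 kept direction and side of the threshold, 12 gained a call, 17 lost one and 17 changed sign. The sign changed only where a value was near 0 and not called. For Tgfbr1 in T vs. S it was −0.0043 with upper-quartile scaling and −0.016 with library totals, and it ranged from −0.022 to 0.088 with each animal left out. For Cyr61 in A + T vs. S it was −0.0015 with library totals and −0.00082 with the deposited log2 values, and it ranged from −0.15 to 0.12 with each animal left out. With each animal left out it ranged from −0.013 to 0.10 for Tgfbr1 and from −0.099 to 0.14 for Tgfbr2 in A + T vs. T, and in A + T vs. S from −0.090 to 0.0060 for Tgfbr3, from −0.20 to 0.0069 for Tgfbr2, from −0.13 to 0.011 for Tgfb2 and from −0.0013 to 0.23 for Ctgf. The cause of these changes was not tested.

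No paired analysis was made, because the labels give no pairing and the numbers taken as animal numbers differ between the groups. The members held 112 to 9168 counts per library, far above the 3 counts taken as the floor, and each interval rests on 3 animals per group.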
